A study of Mus musculus with 40 samples.

Results

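The genes described here make, copy or read DNA methylation in mouse embryonic stem (ES) cells, and were followed on 40 two-colour oligonucleotide arrays while the cells lost Pou5f1, carried extra Nanog, or were placed in media that end self-renewal. The set held the methyltransferases Dnmt1, Dnmt3a and Dnmt3b, their catalytically inactive relative Dnmt3l, the maintenance factor Uhrf1, the chromatin remodelling ATPase Hells (also called Lsh), the methyl-CpG-binding domain proteins Mbd3 and Mbd4, and the co-repressor Trim28. Every gene probe on the arrays whose name led to one of these 9 symbols was taken, and 8 of the 9 genes were found, among 13827 named genes in all. They were measured by 13 different probes on the early and Nanog arrays and by 9 on the late arrays. Dnmt3a was matched to no probe and was not analysed here.

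The late and early experiments used ZHBTc4 ES cells of the 129/Ola strain, in which both chromosomal copies of Pou5f1 are inactivated and a tetracycline-regulated Pou5f1 transgene keeps the cells undifferentiated until tetracycline (Tet) shuts it off. Late arrays followed the cells to 120 hr with Tet in steps of 24 hr, with 3 arrays at each time, and early arrays covered 0, 3, 6, 12 and 24 hr with 2 at each time. The 12 Nanog arrays compared a clone with integrated Nanog cDNA and its parental line (labelled ES 129.3, of 129SvEv-Tac origin, passage 12) and a clone labelled as carrying episomal Nanog with its parental line MG1.19 (129Sv, passage 5), which expresses polyoma large T antigen. Each of these 4 lines was cultured for 3 days with LIF, without LIF, or with LIF and 1 µM retinoic acid (RA), with 1 array per line and medium, so that each kind of transgene rested on 1 clone. The study's methods name another line, MC1, as the one that received the integrated construct, so the pairing of that clone with ES 129.3 follows the labels and is uncertain. All cells had been passaged on gelatin to remove feeder cells. On each array the sample was labelled with Cy3 and the Universal Mouse Reference RNA, a fixed pool, with Cy5. A level is given here as the log2 of the Cy3 over the Cy5 signal after background correction and loess, so a value of 0 means as much signal as the reference pool gave at that probe, and levels of different probes are not comparable. A gene was called changed at an adjusted p of 0.05 in limma and a change of at least 1.5-fold, and its brightest probe in the experiment stood for it. All times with Tet were set against the same 0 hr arrays, no cells kept without Tet for as long were arrayed here, and so the effects of Tet and of time in culture cannot be told apart.

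Cytosine methylation at CG dinucleotides is set up in early development by Dnmt3a and Dnmt3b, which Dnmt3l assists by binding the enzyme and unmethylated histone H3. At replication, Uhrf1 recognises the hemimethylated daughter strands and brings in Dnmt1, which copies the mark, and Hells opens nucleosomal DNA to the methyltransferases. Mbd4 is a glycosylase that removes thymine from mismatches left by deaminated methylcytosine, Mbd3 is a subunit of the NuRD deacetylase complex that has lost most of the affinity for methylated DNA, and Trim28 is recruited by KRAB zinc finger proteins to silence retroelements and to guard methylation at imprinted regions. ES cells are known for high levels of Dnmt3b and Dnmt3l, whereas trophectoderm, the lineage to which cells turn when Pou5f1 is lost, is known for low DNA methylation.

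The array probes were 60 bases long, and the sequences of 4 probes are shown because the comparisons below turn on them: the probe of Dnmt3l that went against the other probe of that gene, the brighter probe of Hells, the only probe of Trim28, and the brightest probe of Uhrf1 on the early and Nanog arrays. They are given 5′ to 3′ in lower case.
Dnmt3l, probe a: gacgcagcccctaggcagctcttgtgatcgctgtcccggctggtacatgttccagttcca
Hells, probe b: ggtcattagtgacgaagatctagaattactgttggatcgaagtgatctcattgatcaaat
Trim28, probe a: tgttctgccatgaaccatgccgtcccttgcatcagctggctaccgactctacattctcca
Uhrf1, probe a: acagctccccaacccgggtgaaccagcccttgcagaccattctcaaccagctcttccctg

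In the GRCm38.p6 assembly the RefSeq gene models placed Dnmt3b on chromosome 2 (153649411 to 153687730), Mbd4 on chromosome 6 (115840697 to 115853400), Trim28 on chromosome 7 (13024152 to 13031032), Dnmt1 on chromosome 9 (20907206 to 20959888), Dnmt3l (78042287 to 78063622) and Mbd3 (80392539 to 80399531) on chromosome 10, Uhrf1 on chromosome 17 (56303337 to 56323486) and Hells on chromosome 19 (38930262 to 38970470). Promoters of the genes differed in CG content, and those of Dnmt3b and Dnmt3l, the pair that parted in time after Tet, are shown with each CG in capitals. Both are on the plus strand and end at the base before the gene model's first base.
Dnmt3b, chr2:153649199-153649410: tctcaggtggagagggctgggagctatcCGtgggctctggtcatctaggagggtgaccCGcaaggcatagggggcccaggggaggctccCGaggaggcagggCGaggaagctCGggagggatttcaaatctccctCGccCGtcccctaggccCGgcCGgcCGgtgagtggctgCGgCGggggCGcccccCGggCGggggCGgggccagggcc
Dnmt3l, chr10:78042037-78042286: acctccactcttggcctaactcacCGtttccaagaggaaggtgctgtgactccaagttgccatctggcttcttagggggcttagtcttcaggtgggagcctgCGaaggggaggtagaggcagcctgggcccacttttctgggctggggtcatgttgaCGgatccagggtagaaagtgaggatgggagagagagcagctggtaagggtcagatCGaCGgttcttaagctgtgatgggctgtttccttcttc
The Dnmt3b stretch held 16 CG dinucleotides in 212 bases and the Dnmt3l stretch 5 in 250 bases. Counted over the 250 bases before a RefSeq start, the median of 32851 promoters was 6, with 2 and 16 as the quartiles. Dnmt3b had 21 (85.2% of promoters had no more), Hells had 28 (93.2%), and the most upstream start of Dnmt3l had 5 (49.6%). The octamer ATGCAAAT, to which Pou5f1 binds, was looked for on both strands. It was found in none of 16 promoters of the 9 genes sought, Dnmt3a and alternative starts included, and in 1.6% of all. With so few promoters and so low a share, finding none says little about these genes. These counts describe the windows, and no methylation was measured on the arrays.

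The labels were checked first with the targeted gene. On the late arrays the Pou5f1 probe read 1.91, 2.40 and 2.04 at 0 hr and lay between -0.30 and 0.12 on the 15 later arrays. On the early arrays the dimmer of its probes read 2.92 and 1.52 at 0 hr and -0.53 and -0.61 after 24 hr, and the brighter probe 3.97 and 3.97, then 3.46 and 3.38. The ES cell list had 8 of 9 genes lower at 120 hr, and its mean level was 2.53 to 2.99 at 0 hr and 0.75 to 0.76 at 120 hr. Of 8 trophectoderm markers 6 were higher, with a mean level of -0.84 to -0.46 at 0 hr and 2.33 to 2.55 at 120 hr. Of 4 primitive endoderm and 5 feeder fibroblast markers, 1 of each was higher (Dab2 and Postn), and the mean level of the feeder list stood at -2.13 to -1.90 and -1.22 to -1.16. The arrays thus measured a population that changed cell type as time with Tet ran on, fewer cells of a type and less RNA per cell cannot be told apart in it, and the part of the cell type change in the results below was not tested. Median Cy3 signals per array were 596 to 776 on the late, 595 to 672 on the early and 531 to 662 on the Nanog arrays, over local backgrounds of 365 to 390. Every member probe was above the negative controls on every array where it was not marked as an outlier. The 95th percentile of those controls was 627 to 653 on the late arrays of 0 hr and 506 to 571 on the later ones. The part of this shift in the changes of dim probes was not tested.

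Over 120 hr with Tet the genes moved apart. Dnmt3l, Trim28, Hells and Uhrf1 fell, Dnmt1 rose, Dnmt3b rose within a day and then fell below its starting level, and the levels of Mbd3 and Mbd4 at 120 hr overlapped with those at 0 hr. At some time 6 of 8 measured genes were called, 4 of them lower and 2 higher, against 24.8% of all 20721 probes tested (10.7% lower, 14.6% higher). At 120 hr 4 were lower and 1 higher, where 20.6% of all probes were called (8.53% lower, 12.1% higher). The median change of the 8 genes at 120 hr was -0.74 on the log2 scale, beside -0.000245 over all probes.

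**Figure D1:**
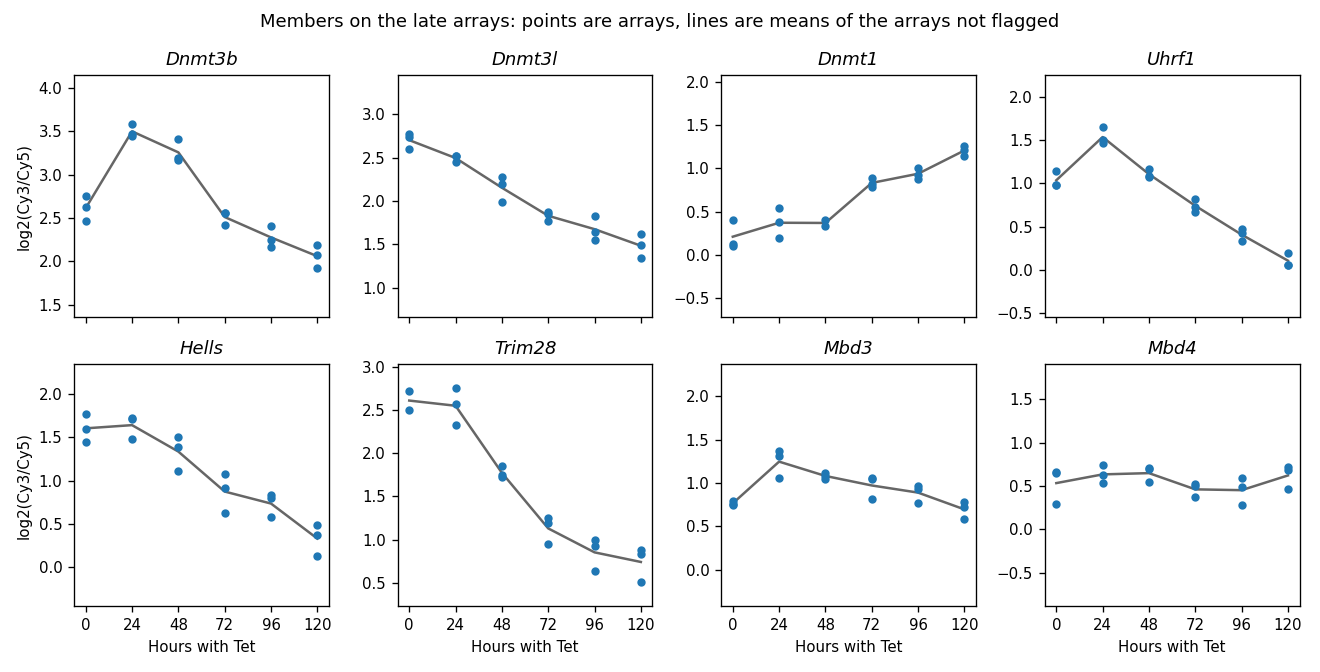
Levels of the 8 genes over 120 hr with Tet on the late arrays (x axis, hours; y axis, log2 of Cy3 over Cy5; points, arrays; lines, means of the arrays not marked as outliers). Trim28 dropped from 2.61 to 0.74, Dnmt1 rose from 0.21 to 1.21, and Dnmt3b peaked at 3.50 at 24 hr.

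Dnmt3b, the de novo enzyme, read 2.46, 2.75 and 2.63 at 0 hr, 3.45, 3.58 and 3.48 after 24 hr, and 3.42, 3.19 and 3.17 after 48 hr. It then read 2.55, 2.42 and 2.56 after 72 hr, 2.41, 2.17 and 2.24 after 96 hr, and 2.18, 1.93 and 2.07 after 120 hr. All arrays of 24 and 48 hr lay above those of 0 hr, as did those of 17.3% and 20.8% of all probes. All arrays of 96 and 120 hr lay below those of 0 hr, as did those of 23.5% and 25.4% of all probes. The rise at 24 hr was 0.89 ± 0.09 on the log2 scale (SE, limma adjusted p = 1.04e-06, n = 3 per time), and Dnmt3b was the only one of the genes called at that time, when 7.58% of all probes were. It remained called at 48 hr at 0.64, when 10.2% of probes were called. The drop from 48 to 72 hr was -0.75 and was called as well (2.74% of probes). The value at 120 hr, -0.55 ± 0.09, had an adjusted p of 6.7e-05 in limma but was under 1.5-fold. After quantile normalisation the Cy3 signal at 24 hr differed from 0 hr by 1.66 (log2), and the Cy5 signal of the reference RNA by 1.02.

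Dnmt3l, the cofactor of the de novo enzymes, took another course. It read 2.74, 2.77 and 2.59 at 0 hr, 2.51, 2.52 and 2.45 after 24 hr, 2.27, 2.20 and 1.98 after 48 hr, 1.77, 1.85 and 1.87 after 72 hr, 1.55, 1.83 and 1.64 after 96 hr, and 1.34, 1.62 and 1.49 after 120 hr. At each time with Tet all 3 arrays were below all those of 0 hr, as were those of 18.3% of all probes at 24 hr and 25.4% at 120 hr. The change at 24 hr, -0.21, missed the threshold (limma adjusted p = 0.087). The gene was called from 72 hr on (14.3% of all probes at 72 hr, 17.8% at 96 hr), at -0.87, then -1.03, and -1.22 ± 0.09 at 120 hr (limma adjusted p = 3e-09). At 48 hr Dnmt3b was called higher, while Dnmt3l differed by -0.55 (adjusted p = 9.4e-05, under 1.5-fold). The signal of the Cy5 channel at the Dnmt3l probe, which holds the same reference RNA on all arrays, also changed along the course. After quantile normalisation it differed from 0 hr by -2.17 (log2) at 120 hr, and Cy3 by -3.58.

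The maintenance genes Dnmt1 and Uhrf1 moved in opposite directions. Dnmt1 read 0.40, 0.13 and 0.10 at 0 hr and 1.26, 1.15 and 1.21 after 120 hr. All of its arrays from 72 hr on were above those of 0 hr, as were those of 23.9% of all probes at 72 hr. Its rise was called at 72 hr (0.62), 96 hr (0.73) and 120 hr (1.00 ± 0.09, limma adjusted p = 6.7e-08). One array of 48 hr was marked as an outlier at this probe and was left out of the fit. Uhrf1, which brings Dnmt1 to replicating DNA, read 0.98, 0.98 and 1.14 at 0 hr, 1.5, 1.65 and 1.46 after 24 hr, and 0.20, 0.060 and 0.061 after 120 hr. It was first higher, by 0.50 ± 0.07 at 24 hr (limma adjusted p = 2.22e-05, under 1.5-fold), and then lower and called, at -0.63 at 96 hr and -0.93 ± 0.07 at 120 hr (limma adjusted p = 3.5e-09). No array of 120 hr overlapped with those of 0 hr at either gene, at a time when 26.9% of all probes lay above and 25.4% below.

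Hells, the remodelling ATPase, fell, and its probes differed in when they did so. The brighter probe b overlapped with 0 hr at 24 and 48 hr and was called from 72 hr on. It read 1.60, 1.44 and 1.77 at 0 hr, 1.72, 1.49 and 1.72 after 24 hr, 0.62, 1.08 and 0.92 after 72 hr, and 0.13, 0.49 and 0.38 after 120 hr, a change of -1.27 ± 0.13 at the last time (limma adjusted p = 3.1e-07). The dimmer probe a, whose gene name came from the study's own annotation and is less certain, read 0.70, 0.77 and 1.37 at 0 hr and -0.59, -0.54 and -0.50 at 120 hr. All of its arrays with Tet lay below those of 0 hr, as did those of 18.3% of all probes at 24 hr and 25.4% at 120 hr. The change of probe a was -0.45 at 24 hr (limma adjusted p = 0.0089, under 1.5-fold) and -0.95 at 48 hr, which was called (adjusted p = 8.4e-06). Probe a reached 1.5-fold after 30.4 hr by interpolation and probe b after 64.5 hr.

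Trim28 had the largest drop in the ratio, although in the Cy3 channel that of Dnmt3l was larger. It read 2.72 and 2.49 on the 2 usable arrays of 0 hr, since the third was marked as an outlier and left out, 2.75, 2.57 and 2.32 after 24 hr, and 1.85, 1.75 and 1.72 after 48 hr. It lay between 0.95 and 1.25 after 72 hr, and read 0.64, 0.92 and 1.00 after 96 hr and 0.51, 0.83 and 0.88 after 120 hr. The arrays of 24 hr overlapped with those of 0 hr, and the largest steps between neighbouring times came next, at -0.77 from 24 to 48 hr and -0.64 from 48 to 72 hr. Both steps were called, in intervals where 3.38% and 2.74% of all probes were. No member was called from 72 to 96 hr (1.35% of probes; 3 members had an unadjusted p under 0.05) or from 96 to 120 hr (0.574%; 6 had). Uhrf1 still changed by -0.33 and -0.30 in these intervals (limma adjusted p = 0.0040 and 0.012), under 1.5-fold. At 120 hr the change of Trim28 was -1.86 ± 0.14 (limma adjusted p = 1.2e-08), with differences of -2.74 in Cy3 and -0.91 in Cy5.

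Mbd3 was higher by 0.48 at 24 hr (limma adjusted p = 3.1e-04, under 1.5-fold). It read 0.80, 0.74 and 0.76 at 0 hr, 1.37, 1.32 and 1.05 after 24 hr, and 0.58, 0.78 and 0.72 after 120 hr. The first-day arrays were all above those of 0 hr, as were those of 17.3% of all probes. The last arrays overlapped with those of 0 hr. Mbd4, the glycosylase, lay between 0.29 and 0.74 on all 18 arrays and overlapped with 0 hr at every time. Its change at 120 hr was 0.09 (limma adjusted p = 0.53). Its Cy3 signal of 585 to 780 was the lowest among the genes, close to the negative controls of these arrays, which limits what this probe can show.

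In the order of the interpolated times at which each gene first changed by 1.5-fold, Dnmt3b came first with 15.8 hr (upward), followed by Trim28 with 40.3 hr, Dnmt3l with 50.6 hr, Hells with 64.5 hr by its brighter probe, Dnmt1 with 70.1 hr and Uhrf1 with 92.9 hr. Arrays lay 24 hr apart, so neighbours in this order from Trim28 to Uhrf1 are within the spacing of the arrays. The time of Dnmt3b was interpolated between 0 and 24 hr of the late arrays. On the early arrays, which sampled that day more finely, Dnmt3b did not reach 1.5-fold. Its changes there were 0.37 at 6 hr, -0.0044 at 12 hr and 0.09 at 24 hr. Across the 18 late arrays Dnmt3b and Uhrf1 had a Pearson r of 0.92, and Dnmt3l and Hells 0.92. Over 17 arrays, since 1 was left out at the Trim28 probe and 1 at the Dnmt1 probe, Dnmt3l and Trim28 had 0.98 and Dnmt1 and Dnmt3l -0.92. These values describe shared courses over the same arrays and carry no test. The named genes with courses most like each member's, by the same measure, were Tomm40, Myh6 and Bard1 for Dnmt3b (0.978 to 0.962), Tsfm, Fkbp5 and Rbpms2 for Dnmt3l (0.982 to 0.978), Ak4, Fbxo5 and Col18a1 for Uhrf1 (0.981 to 0.978), Champ1, Grk6 and Ccdc88c for Hells (0.981 to 0.978), and Dbnl, Isy1 and Mrps11 for Mbd3 (0.959 to 0.956). They were Phldb1, Cers5 and Rxra for Dnmt1 (0.974 to 0.969) and Ttf2, Tst and Mcm5 for Trim28 (0.992 to 0.984), both over 17 arrays. For Mbd4, whose level hardly moved, the best matches were weaker, with 0.843 for Zfp207.

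Genes that work with the set were read from lists of known partners, which were chosen with earlier results of these data known. At 120 hr 20.6% of all probes were called, and the lists stood as follows. Of 5 measured maintenance partners 3 were lower, namely Cdca7, a partner of Hells (-2.14), the deubiquitinase Usp7, which stabilises Uhrf1 and Dnmt1 (-1.68), and DNA ligase Lig1 (-0.89), and none was higher. Of 10 genes of demethylation and base repair 6 were lower and 1 higher, with a median of -1.20. The methylcytosine dioxygenases split, with Tet1 at -2.81, Tet2 at -1.92 and Tet3 at 1.54, and the uracil glycosylase Ung stood at -1.93.

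Of 10 partners of Trim28 and readers or writers of H3K9 methylation 4 were lower and 2 higher. Atf7ip, a partner of the H3K9 methyltransferase Setdb1, changed by -2.11, the heterochromatin protein Cbx3 by -1.24 and the imprint guardian Zfp57 by -0.99, whereas the methyltransferase Suv39h1 changed by 1.07. Among 5 methyl-CpG readers 2 were higher, Mbd2 (2.08) and Mbd1 (1.09), and none was lower. Of 9 NuRD partners of Mbd3 the histone chaperone Rbbp7 was higher (2.64), the deacetylase Hdac2 lower (-1.27), and 7 were not called.

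Of 6 genes of the methyl donor cycle and tRNA methylation 4 were lower and 1 higher, with Mat2a, which makes S-adenosylmethionine, at -1.08 and Ahcy, which removes its by-product, at -1.03. Of 15 genes of S phase and mitosis 10 were lower and none higher at 120 hr (median -0.62, Mcm7 -1.84), and the mean level of that list was 0.74 to 0.88 at 0 hr, 0.97 to 1.21 at 24 hr and -0.00 to 0.17 at 120 hr. Uhrf1, a gene of replicating cells, had the same order of mean levels at these times, and so had Dnmt3b, Mbd3 and Hells at probe b. Dnmt1, which copies the mark at replication, was instead lowest at 0 hr and highest at 120 hr. Whether fewer dividing cells account for any of these courses was not tested.

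**Figure D2:**
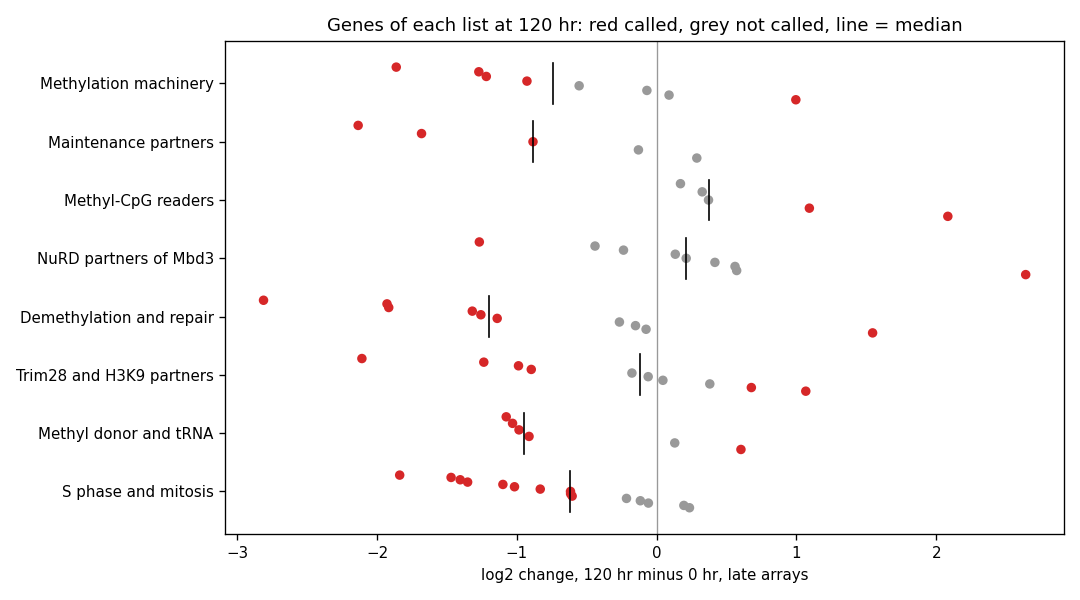
Change at 120 hr against 0 hr on the late arrays (x axis, log2) for the 8 genes, in the top row, and 7 lists of partner genes (y axis); points are genes, red where called and grey where not, and short vertical lines are medians. The demethylation list has a median of -1.20, with Tet1 at -2.81 and Tet3 at 1.54.

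The early arrays resolved the first day with Tet, with 2 arrays at each time. Of 8 genes 2 were called at any time, Dnmt3l and Mbd3, both with a higher ratio at the brightest probe, against 9.43% of all 39011 probes (7.43% higher). At 24 hr 2 were called, where 8.84% of all probes were (1.93% lower, 6.91% higher). None was called at 3 hr, when no probe at all was called and no member had an unadjusted p under 0.05, or at 12 hr, when 1 had and 0.597% of all probes were called. Both calls were upward changes of the ratio. The Cy3 signal of the cells at these probes was not higher at 24 hr, with differences of -1.66 for Dnmt3l and -0.13 for Mbd3. With either array of 0 hr left out none of the genes was called, and 1 was with either array of 3 hr or the second of 24 hr left out.

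The brighter probe b of Dnmt3l read 3.08 and 3.31 at 0 hr, 3.52 and 3.92 after 3 hr, 4.33 and 4.57 after 6 hr, 3.51 and 4.28 after 12 hr, and 3.82 and 4.03 after 24 hr, so all later arrays lay above those of 0 hr, as did those of 18.5% of all probes at 6 hr and 26% at 24 hr. The changes were 1.25 ± 0.23 at 6 hr (limma adjusted p = 0.039, n = 2 per time; 2.17% of all probes called) and 0.73 ± 0.23 at 24 hr (limma adjusted p = 0.048). Probe a of the same gene read 3.42 and 3.62 at 0 hr and 2.80 and 2.35 at 24 hr, a change of -0.94 ± 0.18 (limma adjusted p = 0.0092), so the probes of Dnmt3l went in opposite directions.

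The probes changed alike in the Cy3 channel and parted in Cy5. After quantile normalisation the Cy3 signal at 24 hr differed from 0 hr by -1.66 (log2) at probe b and by -1.60 at probe a. The Cy5 signal of the reference RNA differed by -2.18 at probe b and by -0.56 at probe a. At 6 hr the Cy3 signal of probe b differed by -0.03 from 0 hr, while its Cy5 signal differed by -1.06. The study's methods gauge bleaching of that dye by the 100 genes with the highest Cy5 variance, picked here on these same arrays. Some movement of their level therefore follows from the choice. Their mean log10 Cy5 was 3.29 to 3.43 at 0 hr and 2.75 to 2.94 at 24 hr. The median Cy5 signal over all gene probes was 580 and 661 at 0 hr and 597 and 574 at 24 hr. With Cy5 corrected for bleaching in the way of the study's methods, the ratio at 24 hr for probe b was -0.49, and none of the genes was called. The order of Dnmt3l levels on the early arrays therefore depended on how the reference channel was treated.

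**Figure D3:**
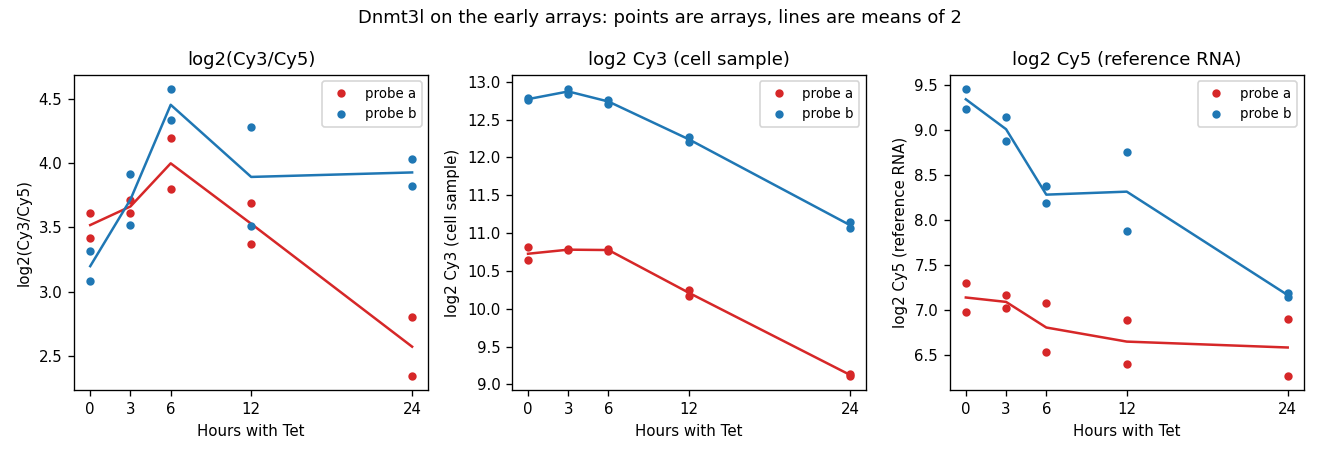
Dnmt3l on the early arrays by probe, as the ratio and as the separate channels (x axes, hours with Tet; y axes, log2; points, arrays; lines, means of 2). At 24 hr the change in Cy3 was -1.66 at probe b and -1.60 at probe a, whereas that in Cy5 was -2.18 and -0.56, and the ratios parted.

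Mbd3, the NuRD subunit, was the other gene called. Probe b read 1.77 and 1.55 at 0 hr and 2.01 and 2.54 at 24 hr (0.61 ± 0.16, limma adjusted p = 0.024), and probe a read 2.23 and 2.24, then 2.71 and 3.19 (0.72, adjusted p = 0.047). The change of probe b ranged from 0.35, without the second array of 24 hr, to 0.88, without the first, and lost its call without the former or either array of 0 hr. The Cy3 signal of probe b differed by -0.13 between these times and the Cy5 signal by -0.83.

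No other gene was called at its brightest probe at 24 hr. Trim28 read 2.03 and 2.47 at 0 hr and 2.19 and 2.11 after 24 hr, and Dnmt3b 4.46 and 4.55, then 4.49 and 4.70. Both overlapped between these times. Hells fell and was called at its dimmer probe a, from 0.80 and 1.32 to 0.34 and 0.19 (-0.80, limma adjusted p = 0.011), and was 2.64 and 2.69, then 2.12 and 2.56, at the brighter probe b (-0.32, adjusted p = 0.13). Its arrays of 24 hr were below those of 0 hr at both probes, as were those of 37.6% of all probes. The Cy3 signal of Hells differed by -0.71 at probe a and -0.84 at probe b. Mbd4 was between 0.96 and 1.48 and Dnmt1 between 0.79 and 1.80 on the 10 arrays. Uhrf1 differed between its probes, with 2.48 and 2.69 at 0 hr and 2.34 and 1.84 at 24 hr at probe c (-0.49, limma adjusted p = 0.047, under 1.5-fold; -0.74 in Cy3), and 1.29 and 1.00, then 0.69 and 1.28, at the brighter probe a.

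Both experiments hold 0 and 24 hr, and probes of identical sequence on both array designs allowed the changes to be compared. Of 8 genes 3 differed between the experiments, against 15.2% of 18869 probes. Dnmt3b changed by 0.89 in the late and by 0.09 in the early experiment, a difference of 0.80 ± 0.16 (limma adjusted p = 5.28e-04). Uhrf1 at probe c changed by 0.50 in the late and by -0.49 in the early experiment, which gave a difference of 0.99 ± 0.15 (adjusted p = 4.41e-05). For Dnmt3l the difference was -0.93 ± 0.22 (adjusted p = 0.003), but its direction turned to 0.30 with the authors' normalized values, 1.02 with Cy3 alone and 0.29 with the bleaching correction. The experiments differed in array design, culture and day of image extraction as well, which cannot be told apart from the experiment, and the Dnmt3b probe was brighter on the early arrays (Cy3 35446 to 40717) than on the late arrays (2936 to 23410).

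On the Nanog arrays the 3 media were compared over the 4 lines, and genes known to respond to each medium were read first. Socs3, a target of LIF signalling, was lower without LIF than with it in 4 of 4 lines (-2.93 to -2.05), and Cyp26a1, which degrades retinoic acid, was higher with RA in 4 of 4 lines (2.14 to 3.03). Lines shared their LIF arrays between these comparisons.

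Without LIF none of the 8 genes was called (1.02% of all probes), 2 had an unadjusted p under 0.05 in limma, and the study's error model called none. Dnmt3b had the largest mean difference, and read 4.6 with and 5.45 without LIF in MG1.19, 4.28 and 5.82 in the clone labelled episomal, 4.70 and 5.69 in the integrated clone, but 5.54 and 5.50 in ES 129.3. It was higher in 3 of 4 lines, with a mean of 0.83 ± 0.31 (adjusted p = 0.25). The line in which it did not move was the one with the highest level under LIF. That LIF array is itself subtracted in the difference, so the level and the difference are not independent.

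With RA 3 of 8 genes were lower than with LIF alone, Dnmt3l, Trim28 and Hells, where 5.86% of all probes were called (1.21% lower). The changes were only just past 1.5-fold. Dnmt3l at probe b went from 2.56 to 1.90 in MG1.19, 2.57 to 1.90 in the clone labelled episomal, 2.38 to 1.76 in ES 129.3 and 3.00 to 2.58 in the integrated clone, a mean of -0.59 ± 0.10 (limma adjusted p = 0.0049, n = 4 lines), and probe a gave -1.08. Trim28 went from 1.39 to 0.79, 0.98 to 0.55, 1.5 to 0.77 and 2.00 to 1.34 in the same order (-0.61 ± 0.08, adjusted p = 0.0016). Hells at probe b went from 1.78 to 1.20, 1.42 to 1.05, 1.74 to 1.01 and 2.31 to 1.60 (-0.60 ± 0.12, adjusted p = 0.011). Each of the 3 genes was lower in 4 of 4 lines. With the study's error model or median centring none of them was called, and without background subtraction 1 was. They were also 3 of the 4 genes lower at 120 hr with Tet, in other cells and on other arrays. Leaving out MG1.19 or ES 129.3 left 1 gene called, Trim28 without MG1.19 and Dnmt3l without ES 129.3. Dnmt3l lost its call without the clone labelled episomal, and Hells lost it without the integrated clone.

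Dnmt3b parted the lines under RA. It went from 4.6 to 3.23 in MG1.19, from 4.28 to 3.39 in the clone labelled episomal and from 5.54 to 3.51 in ES 129.3, while the integrated clone read 4.70 and 4.73. The mean of -1.07 ± 0.31 missed the threshold (adjusted p = 0.055) and reached it at -1.43 without the integrated clone (adjusted p = 0.02), and with 1 array per line the difference between lines has no test. Against cells without LIF, RA gave 2 called genes of 8, Dnmt3b (-1.90 ± 0.31, adjusted p = 0.0048) and Hells (-0.62 ± 0.12, adjusted p = 0.0088), where 5.68% of all probes were called. The call of Hells was lost without the clone labelled episomal (-0.52) and both were lost without MG1.19 (adjusted p = 0.059 for Dnmt3b), where Trim28 gained one. Dnmt1 lay between -0.07 and 0.41 on all 12 arrays, and Mbd3, Mbd4 and the bright probe of Uhrf1 showed no called change in either medium.

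Cell type markers moved with RA as well. Of 9 ES cell markers 5 were lower, of 9 trophectoderm markers 6 were higher and of 4 primitive endoderm markers 3 were higher than with LIF alone, and 2 of 5 feeder fibroblast markers were higher. The mean level of the feeder list went from -1.44 to -0.50 in ES 129.3 and from -1.80 to -1.74 in the integrated clone. The mean level of the ES list was 2.34 to 3.06 with LIF and 1.5 to 2.56 with RA, and of the primitive endoderm list -0.84 to -0.35 and 0.11 to 1.71. Of 15 genes of S phase and mitosis none was called with RA. Among partners of the set, Tet1 changed by -1.65, Tet2 by -0.87 and Tet3 by 0.79, and 4 of 10 genes of the demethylation list were lower and 1 higher. The part of these shifts in the changes of the members was not tested.

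**Figure D4:**
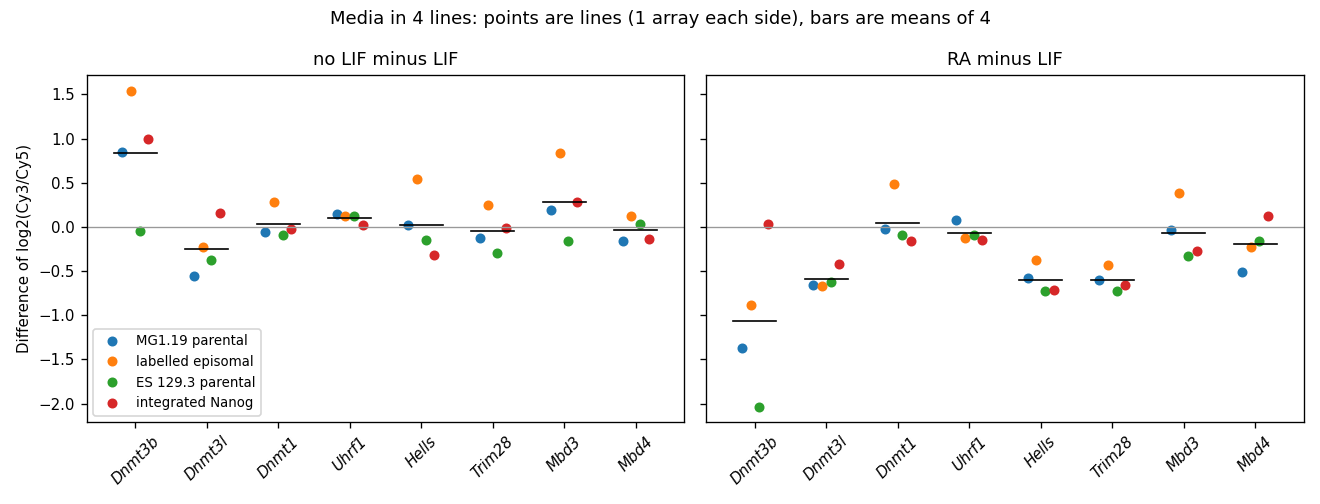
Differences between media in 4 lines (y axis, difference of log2 of Cy3 over Cy5; x axis, genes; points, lines; bars, means of 4). With RA, Dnmt3l, Trim28 and Hells lie below 0 in 4 of 4 lines, and Dnmt3b ranges from -2.03 to 0.03.

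Clones with added Nanog were compared with their parental lines over 6 pairs of arrays. Nanog itself read 2.48, 2.00 and 2.49 in the integrated clone with LIF, without LIF and with RA, against 1.61, 1.83 and 1.27 in its parental line. In the clone labelled episomal it read 1.28, 1.47 and 0.66, against 1.91, 1.93 and 1.26 in MG1.19, so that the libraries labelled episomal went against their label at this probe. The study's methods, however, report Nanog raised in both clones by real-time PCR, and far more in the episomal clone. Why the array probe differed from that measurement was not tested. The clones were therefore also taken apart.

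Over both clones together none of 8 genes was called (0.00531% of all probes, 2 of 37681), although 2 had an unadjusted p under 0.05 in limma, and the study's error model called none. Dnmt3l had the largest mean difference, 0.48, and ranged from -0.01 to 1.14 over the pairs. In the integrated clone alone 2 of 8 genes were higher than in its parental line, where 4.53% of all probes were called. Dnmt3l at probe b read 3.00, 3.15 and 2.58 in the clone (LIF, no LIF, RA) and 2.38, 2.01 and 1.76 in the parental line (0.86 ± 0.11, limma adjusted p = 0.0077), and probe a gave 1.54. Trim28 read 2.00, 1.99 and 1.34, against 1.5, 1.20 and 0.77 (0.62 ± 0.09, adjusted p = 0.0099). Its call was lost without the pair of arrays grown without LIF (0.54), without background subtraction (0.55) and with median centring (0.48), and the study's error model called neither gene (adjusted p = 0.25 for Dnmt3l and 0.37 for Trim28). Hells, Mbd4 and Uhrf1 were higher by 0.52, 0.46 and 0.38 with adjusted p under the threshold but under 1.5-fold, and Dnmt3b differed by 0.19 ± 0.35.

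In the clone labelled episomal none of the genes was called, nor any other probe, and 1 of 8 had an unadjusted p under 0.05. Dnmt3l read 2.57, 2.34 and 1.90 there and 2.56, 2.01 and 1.90 in MG1.19. In the test of the difference between clones, Trim28 was the only gene called, at 0.85 ± 0.12 (adjusted p = 0.045; 0.791% of all probes called), and it lost the call when any pair of arrays was left out (0.76 to 0.95). The difference for Dnmt3l was 0.74 ± 0.16 with an adjusted p of 0.099. The 3 media of a clone share its cells, so these p-values hold for the 2 clones and not for Nanog transgenes in general, and the parental backgrounds and days of image extraction cannot be told apart from the kind of transgene. The integrated clone also had 4 of 9 ES and 1 of 4 primitive endoderm markers higher than its parental line. In the same comparison 3 of 9 trophectoderm and 1 of 5 feeder markers were lower. Differences were 1.03 for Tet1, 1.26 for Tet2 and -1.03 for Tet3.

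**Figure D5:**
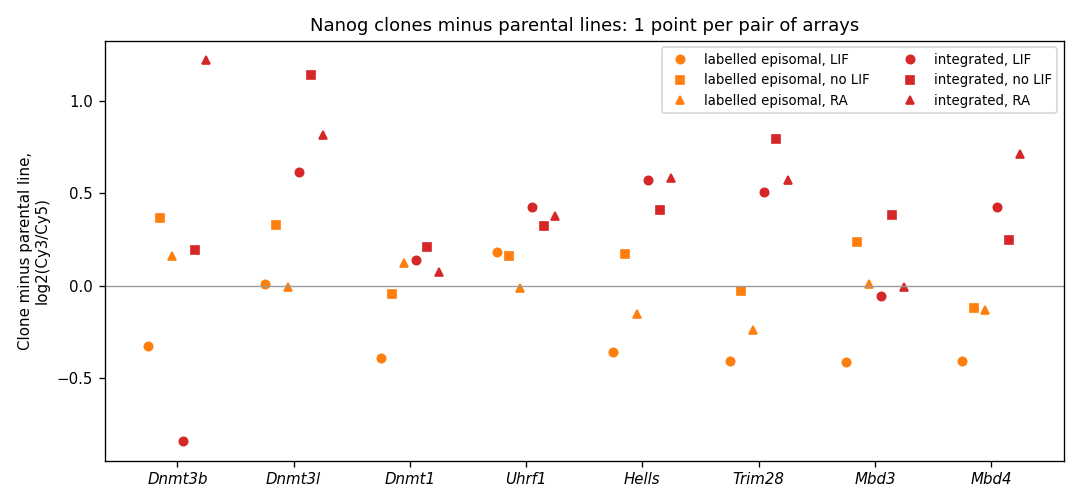
Each clone minus its parental line in the same medium (y axis, log2 of Cy3 over Cy5; x axis, genes; points, pairs of arrays; colour, clone; marker shape, medium). For Dnmt3l and Trim28 the integrated clone is above 0 in all 3 media, and the clone labelled episomal lies between -0.41 and 0.33.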

How the data were processed

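Total RNA of mouse ES cells was labelled with Cy3 and a common reference RNA with Cy5, and hybridised to NIA 60-mer arrays without dye swaps. The intensity values per spot were deposited as Agilent Feature Extraction 7.5.1 wrote them, as mean signals and local backgrounds. The authors also deposited normalized values as log10 intensities (NIA Array Analysis), of which 1 column carries a code for missing cells and was read as a score. They served only as an alternative.

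Here intensities were corrected with normexp (offset 50) and normalized by loess within arrays, control spots and outlier-flagged spots were left out, and spots of a probe were averaged (limma 3.58.1, R 4.3.3). Linear models were fitted over all gene probes of an experiment, with two-sided moderated tests and Benjamini-Hochberg adjustment over all probes, and a call needed an adjusted p of 0.05 with a change of 1.5-fold. Nanog comparisons used the pair of clone and parental line, or the line, as a block. Over all gene probes, arrays of a group correlated at 0.956 to 0.981 on the early and 0.960 to 0.994 on the late arrays. Replicate arrays of early and late cells are separate samples per the labels, but nothing says that they were separate cultures, so p-values measure the spread between these arrays, and the number of arrays limits the precision.

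Probes were named through accessions in the array files and RefSeq tables, through probes of identical sequence on another design, or through the study's tables, and 8 of 9 genes were found. Every probe of each gene was read, and the probe of highest mean intensity stood for the gene. Of each partner list the up to 4 genes with the largest called change at 120 hr were named if it had the same sign on all 3 arrays, and of all genes the 3 most correlated with each member. Genes of the lists named for other comparisons are those same genes or Tet1, Tet2 and Tet3, which were chosen after their values were seen. The members and lists were chosen with earlier results of these data known. The fits were tested on simulated data. The deposited treatment text of the late arrays describes another construct, and the titles, which name ZHBTc4 and Tet, were followed. Alternatives covered background correction, normalization, the reference channel, dim probes, the error model of the study's methods, the choice of probe, the replicate number as a block, and leaving out arrays.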

Additional observations from a re-analysis of the deposited data

Results flagged for a closer look

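Dnmt3l at its brighter probe differed between the late and early experiments in the change from 0 to 24 hr, by -0.93 on the log2 scale, with a test of the difference itself in limma. Dnmt3b differed by 0.80 and Uhrf1 by 0.99 in the same test. The reference channel changed at some probes and not at others. On the early arrays at 24 hr it differed from 0 hr by -2.18 (log2) at probe b of Dnmt3l and by 0.06 at the Trim28 probe. At the Dnmt3b probe it differed by 1.02 at 24 hr on the late arrays and by -0.19 on the early arrays. The Dnmt3l difference turned its direction with other treatments of that channel, and the part of the reference in these differences was not tested. Trim28 differed between the integrated clone and the clone labelled episomal, each against its parental line, by 0.85. None of 39 groups of 4 to 10 values held an outlying array among the members.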

How the results depend on the processing

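Of the late genes 5 to 6 were called under each alternative, and 6 without any 1 array, and 2 to 3 between neighbouring times (2 without any 1 array). On the early arrays 2 were called, 1 without background subtraction, with median centring or with the authors' normalized values (then lower), and 0 with bleaching correction or the study's error model, with 0 to 3 when 1 array was left out (0 without either 0 hr array). Of the late minus early differences 3 were called and 5 with Cy3 alone (3 without any 1 array). Over both clones 0 genes were called throughout, and 0 without LIF. For integrated minus episomal the 1 call went to 0 with processed signals, without background subtraction, with median centring, the authors' values, Cy3 alone or the error model, and without any pair (0 to 0). With RA against LIF the 3 calls went to 1 without background subtraction and to 0 with median centring or the error model, and to 1 to 3 without a line. With RA against no LIF the 2 calls went to 1 without background subtraction or with median centring, 4 with Cy3 alone and 0 with the error model, and to 1 to 3 without a line.

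Some values turned direction. Uhrf1 at 72 hr was 0.080 with the authors' values. Dnmt3l on the early arrays at 24 hr was -0.25 without background subtraction, -0.46 with the authors' values, -1.66 with Cy3 alone, -0.49 with bleaching correction and -0.11 as the mean of its probes. At 12 hr it was -0.047 with the authors' values, -0.53 with Cy3 alone and -0.049 with bleaching correction, and at 6 hr -0.032 with Cy3 alone. Mbd3 at 24 hr was -0.13 with Cy3 alone. The late minus early difference of Dnmt3l was 0.30 with the authors' values, 1.02 with Cy3 alone and 0.29 with bleaching correction. The cause was not tested. Among genes and comparisons with an adjusted p within the threshold or a change of at least 1.5-fold, 1306 values under the alternatives kept their direction and their side of the threshold, 83 lost the call, 23 gained it and 14 turned. Of 2325 values for the other 108, 152 turned and 10 became called.

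Dropping 1 array of 0 hr changed late calls near 1.5-fold, for Dnmt3b at 48 hr (0.57 without array 1), Dnmt1 at 72 hr (0.58 and 0.56 without arrays 2 and 3) and Uhrf1 at 96 hr (-0.57 without array 3). Probes called over all genes were 5134 on the late arrays (2852 without background subtraction) and 3677 on the early arrays (1270 without background subtraction, 1742 with the authors' values, 1376 with bleaching correction, 2292 with Cy3 alone, 0 with the error model). With the replicate number as a block, 6 late, 2 early and 3 late minus early genes were called. The numbers were not taken to pair the samples in the main fits. Same-numbered arrays had a mean correlation of 0.114 (-0.137 to 0.335) over 20 early pairs and 0.151 (-0.430 to 0.748) over 45 late pairs. Whether arrays of the same number shared any handling was not tested. Extraction day as a block could not be fitted, since early and late arrays have 1 day each and days of Nanog arrays lie within lines. Mbd4, with Cy3 near background, and pairs or lines with 1 array each limit what can be seen.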

Other observations

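Several partners of the set had moved by the first day with Tet in both experiments, at the time when the member calls differed between them. These genes were picked after their values were seen. At 24 hr Tet2, a methylcytosine dioxygenase, was at -2.10 on the late and -1.81 on the early arrays (log2, limma adjusted p = 2.98e-11 and 1.80e-05). The deubiquitinase Usp7 was at -1.56 and -1.26, Atf7ip, a partner of Setdb1, at -1.56 and -1.46, and the H3K9 methyltransferase Suv39h1 at 1.33 and 1.45, and each of these was called in both experiments. Of the 10 genes of demethylation and repair 2 were lower on the late arrays at 24 hr, and 2 were lower and 1 higher on the early arrays, where 7.58% and 8.84% of all probes were called.

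Without LIF, where no member was called, 2 of the 10 genes of demethylation and repair were lower, Tet2 (-1.22 ± 0.13, limma adjusted p = 0.0068) and Tet1 (-0.64 ± 0.12, adjusted p = 0.04).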
